A study of Mus musculus with 31 samples.

Results

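The genes described are 8 transcription factors that build and maintain the islets of Langerhans, the hormone-secreting clusters of the pancreas: Pdx1, Nkx6-1, Nkx2-2, Neurod1, Neurog3, Pax4, Pax6 and Mafa. They were selected by gene symbol, and all 8 were found among the 38283 gene rows of each of 2 deposited tables. RNA had been sequenced from pancreatic cells of C57BL/6 mice at postnatal day 2, sorted into YFP+ mesenchymal cells and YFP- non-mesenchymal cells. Values of 21 of the 31 libraries of the series were used. In every animal the Cre recombinase was carried at Nkx3.2, a gene of the pancreatic mesenchyme, so the non-mesenchymal fraction is the mixture of acinar, ductal, endocrine, blood and other cells that did not carry the YFP label.

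The Igf2 model compared Controls 1 (Igf2+/+; Nkx3.2Cre/+) with Mutants 1 (Igf2+/fl; Nkx3.2Cre/+), with 4 libraries of controls and 3 of mutants, all of the non-mesenchymal fraction. The H19DMD model compared Controls 2 (H19DMD+/+; Nkx3.2+/Cre) with Mutants 2 (H19DMDfl/+; Nkx3.2+/Cre), with 3 libraries of controls and 4 of mutants in each fraction. The first genotype is meant to remove mesenchymal Igf2, a growth factor gene, and the second is described by the series as raising it. The mesenchymal libraries of the Igf2 model were not analysed here. The labels number the replicates but do not say that they came from separate animals, so p-values measure only the spread between these libraries, which may be technical.

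In the embryonic pancreas Pdx1 and Nkx6-1 mark progenitor cells, and both are later kept high in insulin-secreting beta cells. Neurog3 switches on for a short time in cells that commit to an endocrine fate and activates Neurod1, Pax4, Nkx2-2 and other factors. Pax6, Nkx2-2 and Neurod1 stay on in mature islet cells, while Pax4 favours beta and delta cells over alpha cells, and Mafa rises as beta cells mature after birth and helps to drive insulin transcription.

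Promoter sequences from RefSeq (GRCm38.p6) were matched for 6 of the 8 genes, and Pax4 and Mafa had no entry. Those of 4 genes are shown: Pdx1 and Nkx6-1, whose H19DMD mutant libraries of non-mesenchymal cells all lay below the controls without passing the test, and Nkx2-2 and Pax6, the most abundant of the 8, whose deviations between libraries were the most alike. Each window runs 5′ to 3′ on the gene's own strand across a start annotated by RefSeq. The windows of Nkx6-1 and Nkx2-2 lie inside the span that GENCODE M21 gives for the gene, whose outermost start is further upstream. Capitals mark E-boxes, the motif CANNTG recognised by basic helix-loop-helix proteins such as Neurog3 and Neurod1.
Pdx1, chr5:147269847-147270146, plus strand: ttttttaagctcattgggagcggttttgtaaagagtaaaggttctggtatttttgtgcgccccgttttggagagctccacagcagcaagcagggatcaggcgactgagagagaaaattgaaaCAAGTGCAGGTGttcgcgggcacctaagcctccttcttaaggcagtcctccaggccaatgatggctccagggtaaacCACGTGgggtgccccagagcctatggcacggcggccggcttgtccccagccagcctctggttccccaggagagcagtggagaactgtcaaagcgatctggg
Nkx6-1, chr5:101664662-101664961, minus strand: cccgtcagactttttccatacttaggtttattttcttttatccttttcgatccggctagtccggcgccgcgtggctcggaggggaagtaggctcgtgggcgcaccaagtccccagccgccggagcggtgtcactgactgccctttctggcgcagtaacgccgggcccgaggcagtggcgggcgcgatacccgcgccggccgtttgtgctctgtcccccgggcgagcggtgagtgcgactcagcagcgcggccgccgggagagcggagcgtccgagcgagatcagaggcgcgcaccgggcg
Nkx2-2, chr2:147186353-147186652, minus strand: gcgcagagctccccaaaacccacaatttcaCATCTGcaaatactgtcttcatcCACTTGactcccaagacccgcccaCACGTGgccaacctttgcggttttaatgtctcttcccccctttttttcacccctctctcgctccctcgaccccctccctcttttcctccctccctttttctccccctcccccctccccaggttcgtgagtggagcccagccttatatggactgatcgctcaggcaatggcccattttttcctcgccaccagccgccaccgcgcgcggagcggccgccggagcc
Pax6, chr2:105668646-105668945, plus strand: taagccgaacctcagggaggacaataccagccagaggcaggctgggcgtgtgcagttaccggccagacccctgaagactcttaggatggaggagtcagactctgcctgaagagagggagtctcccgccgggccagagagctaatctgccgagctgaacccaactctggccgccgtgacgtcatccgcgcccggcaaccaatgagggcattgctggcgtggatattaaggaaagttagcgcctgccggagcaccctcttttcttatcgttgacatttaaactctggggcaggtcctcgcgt

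The Pdx1 and Nkx2-2 windows each held 3 E-boxes, and the Nkx6-1 window held 0, as did the Pax6 window shown. A second Pax6 window (chr2:105682213-105682512) held 1, with the letters CAAATG. The Neurod1 window (chr2:79456587-79456886) held 1, CATATG, and the Neurog3 window (chr10:62132840-62133139) held 1, CAGCTG. Among 32851 promoters of the same length, 72.3% held at least 1 match to CANNTG on either strand and 17.6% held 3 or more. CATATG was in 3.91% and CAGCTG in 16.3%, and both are also counted among the E-boxes. The letters TAAT, the core of many homeodomain binding sites, counted on both strands, occurred 2 times in each Pax6 window and 1 time in that of Nkx2-2, and were in 58.0% of all promoters. A match of letters is a description and shows neither binding nor regulation.

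Levels were given as FPKM, a unit defined as fragments scaled by transcript length and by the mapped fragments of the library. Genes of different length can be set side by side in it. Whether libraries were also scaled to each other is not given in the sources used here. Absolute depth was unknown, and a library had 17476 to 20918 genes above 0. In the Igf2 model the top 3 features held 74.2% to 82.5% of the FPKM total in mutants and 60.5% to 75.5% in controls. In non-mesenchymal cells of the H19DMD model they held 41.1% to 56.8% in mutants and 53.3% to 56.7% in controls. The effect of these shares on the levels of the 8 genes was not tested. Igf2, the gene that the genotypes are meant to alter, did not overlap between H19DMD genotypes in the sorted mesenchyme: it was at 6162 to 7923 FPKM in mutants and 3648 to 4024 in controls. In non-mesenchymal cells of the Igf2 model, Igf2 was at 25.0 to 146.5 FPKM in mutants and 71.5 to 143.9 in controls, and these ranges overlapped. In non-mesenchymal cells of the H19DMD model it was at 45.4 to 156.7 FPKM in mutants and 45.2 to 53.2 in controls, and only mutant replicate 3 lay within the range of the controls. Of 13 mesenchymal markers, 12 were tested between fractions and all 12 were higher in the YFP+ cells, although Nkx3-2 itself was at only 0 to 1.99 FPKM there. The models come in separate tables, whose headers carry different library identifiers, so levels are compared between genotypes and fractions only within a model.

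In non-mesenchymal cells the 8 genes formed 4 tiers. Nkx2-2 and Pax6 were the most abundant in all 4 groups, with means of 39.0 to 80.7 FPKM and 47.9 to 60.2 FPKM, and their ranges overlapped each other in every group. Nkx6-1, Pdx1 and Neurod1 followed, with means of 10.7 to 19.6 FPKM, and their ranges overlapped in every group except the H19DMD mutants, in which Nkx6-1 and Neurod1 both lay above Pdx1. Neurog3, at means of 3.67 to 6.57 FPKM, came next and its range touched that of Neurod1 in the Igf2 controls only. Pax4 had means of 0.590 to 1.14 FPKM, and Mafa was listed at 0 in 12 of 14 libraries.

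**Figure D1:**
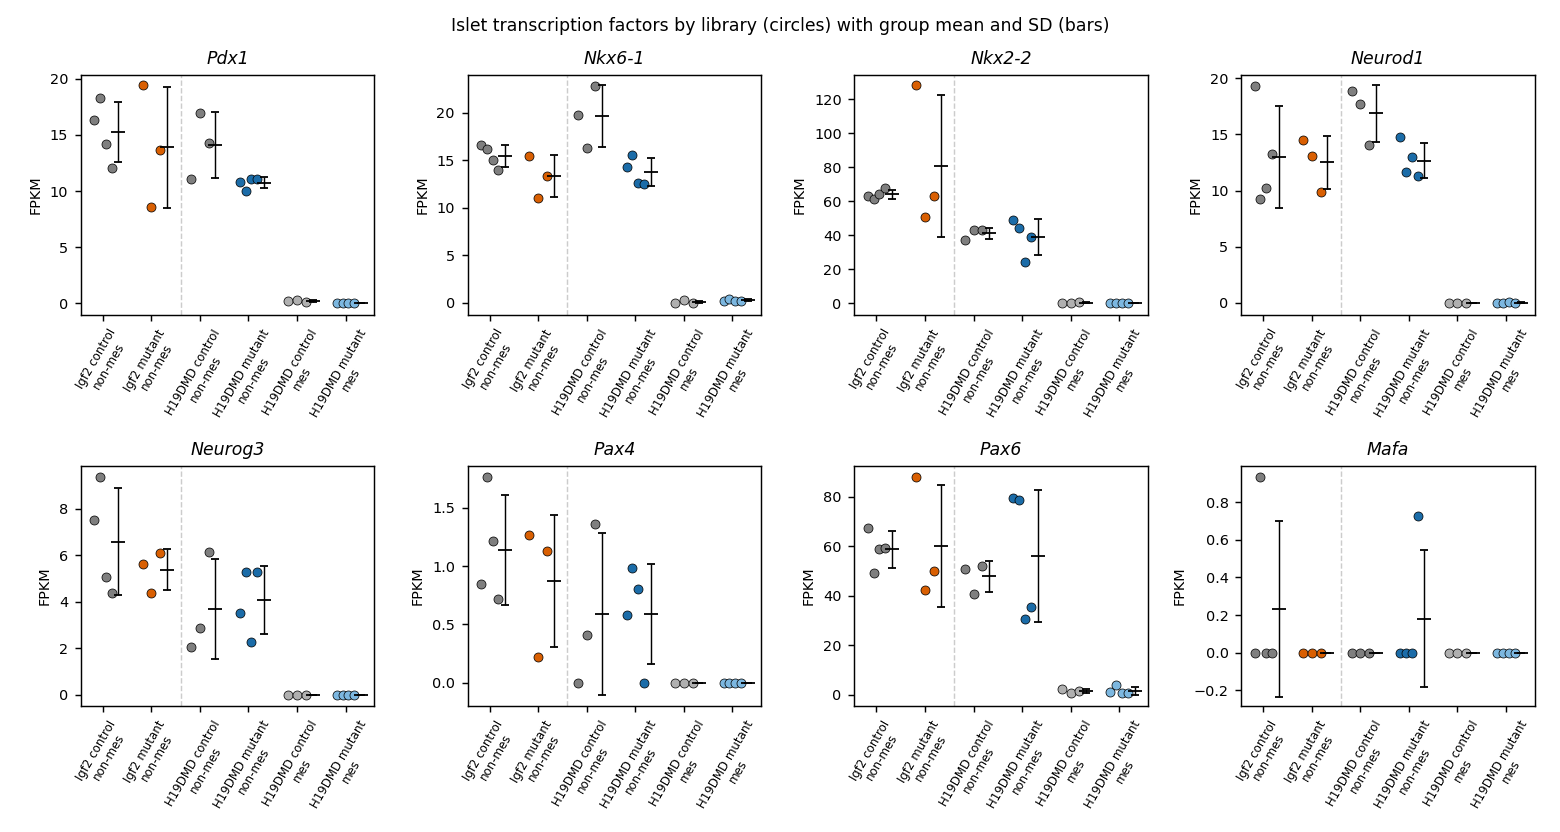
FPKM of each of the 8 transcription factors (vertical axis, linear, a separate scale per gene) in each library (circles), with the mean and SD of each group beside it (bars, drawn below 0 where the SD exceeds the mean). Non-mes and mes are the non-mesenchymal and mesenchymal fractions, and the dashed line separates the 2 tables. All genes other than Mafa are visible in non-mesenchymal cells and lie at or near 0 in mesenchymal cells.

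Set against the protein-coding genes with a mean above 0, Pax6 exceeded 93.4% to 94.5% of them in the 4 non-mesenchymal groups and Nkx2-2 exceeded 91.5% to 95.7%. Nkx6-1 exceeded 66.9% to 81.6%, Pdx1 66.6% to 74.2% and Neurod1 65.3% to 78.2%. Neurog3 sat near the middle, above 41.0% to 48.2%, and Pax4 was above only 16.1% to 21.5%. The amount of each gene per islet cell cannot be read from these mixed fractions: in bulk samples fewer cells of a type and less RNA per cell cannot be told apart.

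Between genotypes in non-mesenchymal cells, none of the genes passed the test in either model. In the Igf2 model 7 of the 8 were abundant enough to test and 0 passed, against 0.0631% of all 17441 genes, and 0 had an unadjusted p under 0.05, against 5.28%. In the H19DMD model 6 were tested and 0 passed, against 0.0677% of 16239 genes, and 1, Nkx6-1, had an unadjusted p under 0.05, against 5.35%. A gene was tested where its mean over the libraries compared was at least 1 FPKM, and it passed at a Benjamini-Hochberg adjusted p of 0.05 over all genes tested, in limma on log2(FPKM + 1). The gene by gene values follow from the commitment factor and its targets to the factors of progenitors and beta cells.

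Neurog3 (ENSMUSG00000044312, chr10:62133090-62134763, plus strand, 1 exon) is the endocrine commitment factor. It was at 7.49, 9.37, 5.06 and 4.36 FPKM in the Igf2 controls and at 5.63, 4.38 and 6.11 FPKM in the Igf2 mutants. Its H19DMD controls were at 2.05, 2.86 and 6.12 FPKM and the mutants at 3.49, 5.26, 2.26 and 5.26 FPKM. Both pairs of groups overlapped, and the control libraries of each model spanned more than the mutants. The log2 difference, mutant minus control, was -0.21 ± 0.29 (SE) in the Igf2 model (95% interval -0.88 to 0.47, limma adjusted p = 0.949) and 0.16 ± 0.38 in the H19DMD model (-0.73 to 1.05, adjusted p = 0.964). The former was -0.041 without Igf2 control replicate 2 and -0.091 without Igf2 mutant replicate 2, and the latter turned to -0.10 without H19DMD control replicate 1.

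Pax4 (ENSMUSG00000029706, chr6:28442334-28449353, minus strand), a repressor that acts downstream of Neurog3, was scarce. Its Igf2 controls were at 0.843, 1.77, 1.21 and 0.721 FPKM and the mutants at 1.27, 0.224 and 1.13 FPKM. In the H19DMD model it was at 0, 0.411 and 1.36 FPKM in controls and 0.581, 0.983, 0.803 and 0 FPKM in mutants, below the level needed for the test. The groups overlapped in both models. The Igf2 model gave -0.22 ± 0.40 (95% interval -1.16 to 0.73, limma adjusted p = 0.967), and 0.07 without mutant replicate 2, the library at 0.224 FPKM.

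Neurod1 (ENSMUSG00000034701, chr2:79452521-79456751, minus strand, 2 exon blocks) is a direct target of Neurog3 that sustains endocrine differentiation and insulin transcription. It was at 19.3, 9.27, 10.2 and 13.3 FPKM in the Igf2 controls and at 14.5, 13.1 and 9.90 FPKM in the Igf2 mutants. The mutants lay wholly within the span of the controls. The log2 difference was -0.02 ± 0.28 (95% interval -0.68 to 0.65, limma adjusted p = 0.997).

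In the H19DMD model Neurod1 was at 18.8, 17.7 and 14.1 FPKM in controls and at 14.7, 11.6, 13.005 and 11.3 FPKM in mutants. The highest mutant exceeded the lowest control, and the other 3 mutants lay below every control. The difference was -0.38 ± 0.17 (95% interval -0.79 to 0.03, limma adjusted p = 0.894, two-sided exact permutation p = 0.0857).

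Nkx2-2 (ENSMUSG00000027434, chr2:147177546-147194243, minus strand) is a homeodomain factor needed for beta, alpha and other islet cell types. In the Igf2 controls it was at 62.8, 61.5, 64.1 and 67.6 FPKM, and in the mutants at 128, 50.7 and 63.2 FPKM. The controls were close together (64.0 ± 2.62, SD, n = 4), whereas the mutants lay on both sides of them (80.7 ± 41.5, n = 3). The log2 difference was 0.22 ± 0.30 (95% interval -0.50 to 0.93, limma adjusted p = 0.952), and it turned to -0.17 without mutant replicate 1.

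The H19DMD controls held Nkx2-2 at 37.1, 42.8 and 42.9 FPKM and the mutants at 48.7, 44.4, 24.2 and 38.8 FPKM. Again the mutants spread to both sides of the controls. The difference was -0.11 ± 0.25 (95% interval -0.70 to 0.48, limma adjusted p = 0.963), and it turned to 0.10 without mutant replicate 3, the lowest library.

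Pax6 (ENSMUSG00000027168, chr2:105668900-105697364, plus strand), a paired-box factor of all islet endocrine cells, was listed with 27 start sites in the files. Its Igf2 controls were at 67.6, 49.2, 59.0 and 59.5 FPKM and the mutants at 88.2, 42.4 and 50.0 FPKM. As for Nkx2-2, mutant replicate 1 was the highest and mutant replicate 2 the lowest of all 7 libraries. The difference was -0.03 ± 0.27 (95% interval -0.66 to 0.60, limma adjusted p = 0.993).

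In the H19DMD controls Pax6 was at 50.7, 40.7 and 52.2 FPKM, and in the mutants at 79.4, 78.8, 30.8 and 35.4 FPKM. The mutants split into a pair above and a pair below all controls. The difference was 0.10 ± 0.38 (95% interval -0.79 to 1.00, limma adjusted p = 0.977), and it turned to -0.10 without mutant replicate 1, to -0.10 without mutant replicate 2 and to -0.0071 without control replicate 2.

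Pdx1 (ENSMUSG00000029644, chr5:147269959-147275848, plus strand, 2 exon blocks) is required for the pancreas to form and later for insulin transcription. In the Igf2 controls it was at 16.4, 18.3, 14.2 and 12.1 FPKM, and in the mutants at 19.4, 8.59 and 13.7 FPKM. The mutants held both the highest and the lowest value of the model. The log2 difference was -0.18 ± 0.29 (95% interval -0.85 to 0.50, limma adjusted p = 0.958), and it turned to 0.11 without mutant replicate 2.

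In the H19DMD model Pdx1 was at 11.1, 16.9 and 14.3 FPKM in controls and at 10.8, 10.01, 11.04 and 11.1 FPKM in mutants. The groups did not overlap, but the margin was narrow: the highest mutant was at 11.10 FPKM and the lowest control at 11.11 FPKM. The mutant libraries were close together (10.7 ± 0.505, SD, n = 4) and the controls were not (14.1 ± 2.91, n = 3). The log2 difference was -0.35 ± 0.18 (95% interval -0.76 to 0.07, limma adjusted p = 0.894), and the two-sided exact permutation p was 0.0286, the smallest that 4 against 3 libraries allow. Without control replicate 2, the highest, the log2 difference was -0.21. After scaling each library by the median ratio to the others, the mutants spanned 9.49 to 11.2 FPKM and the controls 12.7 to 16.6 FPKM.

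Nkx6-1 (ENSMUSG00000035187, chr5:101658139-101664996, minus strand, 3 exon blocks) specifies beta cells and represses genes of other islet types. Its Igf2 controls were at 16.6, 16.2, 15.1 and 13.97 FPKM and the mutants at 15.5, 11.1 and 13.4 FPKM. Only the highest mutant reached into the range of the controls. The log2 difference was -0.21 ± 0.17 (95% interval -0.62 to 0.20, limma adjusted p = 0.919, two-sided exact permutation p = 0.143), and it was -0.090 without mutant replicate 2 and -0.32 without mutant replicate 1.

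The H19DMD controls held Nkx6-1 at 19.7, 16.3 and 22.8 FPKM and the mutants at 14.3, 15.6, 12.7 and 12.5 FPKM. All 4 mutants lay below all 3 controls, and the mutant mean was 0.700 of the control mean (13.8 ± 1.45 against 19.6 ± 3.26 FPKM, SD). The log2 difference was -0.48 ± 0.17 with a 95% interval of -0.88 to -0.07. Its unadjusted p was 0.0271 and its limma adjusted p was 0.892, so it did not pass over all genes, and the two-sided exact permutation p was the smallest possible, 0.0286. After median-ratio scaling the mutants spanned 11.9 to 14.8 FPKM and the controls 16.1 to 22.6 FPKM.

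Mafa (ENSMUSG00000047591, chr15:75745490-75748228, minus strand, 1 exon) was listed at 0 in all libraries except Igf2 control replicate 2, at 0.935 FPKM, and H19DMD non-mesenchymal mutant replicate 4, at 0.726 FPKM. It was not tested. The files assign it only chr15:75746843-75747922, which is 39.4% of the annotated length, so reads from the rest of its single exon may not have been counted, and a value of 0 is not a measurement of absence.

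**Figure D2:**
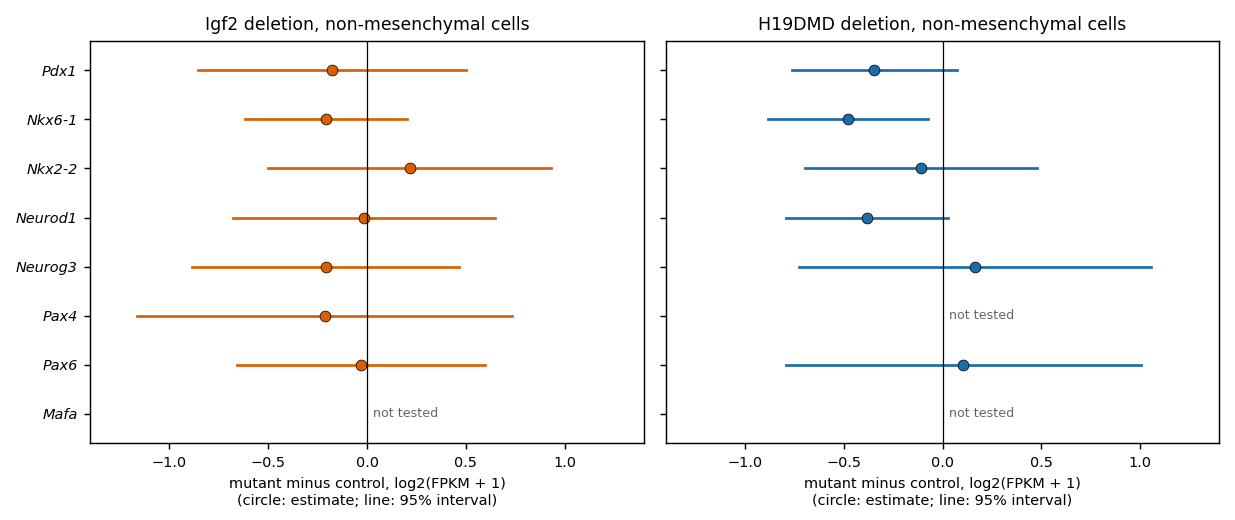
Difference between mutant and control non-mesenchymal libraries on the log2(FPKM + 1) scale (horizontal axis) for each transcription factor tested, with its 95% interval from limma. The Igf2 model (left, 7 tested) and the H19DMD model (right, 6 tested) are shown. All intervals cross 0 except that of Nkx6-1 in the H19DMD model, which runs from -0.88 to -0.07 before any adjustment for the number of genes tested.

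Of the 6 genes tested in the H19DMD model, 2 had mutant libraries all below the controls, Pdx1 and Nkx6-1, and 0 had them all above. Over all genes tested, 5.68% had groups that did not overlap, with 2.2% lower in mutants. The genes were chosen with earlier results of these data known, so such shares are set beside them as a description only. In the Igf2 model 0 of the 7 genes tested had groups that did not overlap, against 6.02% of all genes. The median log2 difference of the genes tested was -0.18 in the Igf2 model and -0.23 in the H19DMD model, beside -0.03 and 0.05 for all genes. These 2 comparisons use separate controls.

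Markers of other cells were examined beside the 8 genes. In the H19DMD model the summed FPKM of 10 pan-endocrine markers was 511 to 659 in mutants and 666 to 712 in controls, without overlap. Of the 9 tested, 7 lay below 0 and 1 had groups that did not overlap, against 5.68% of all genes. None of the 9 passed, and Vgf was listed at 0 in all 3 controls. Chgb, a granule protein and the largest part of that sum in controls, was at 159 to 243 FPKM in mutants and 217 to 277 in controls, with overlap. Of 12 acinar markers tested 11 lay below 0, with a median of -0.25. All 8 ductal markers lay above 0 with a median of 0.33, and all 6 erythroid markers with a median of 1.71, whose summed level was 152 to 1706 FPKM in mutants and 123 to 437 in controls. The 8 leukocyte markers lay on both sides of 0, with a median of -0.10. Of 9 mesenchymal markers tested 7 lay above 0, with a median of 0.22, and 0 had groups that did not overlap. The part of mesenchymal cells in the Igf2 level of this fraction was not tested.

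In the Igf2 model the 14 acinar markers summed to 93775 to 108608 FPKM in mutants and 32600 to 47335 in controls, with Amy2a5 at 0 in every control. Most of each sum was Ctrb1, at 75462 to 86750 FPKM in mutants and 25717 to 37042 in controls. None of the acinar markers passed, although 11 of the 13 tested had groups that did not overlap, against 6.02% of all genes. All 8 leukocyte markers lay above 0, with a median of 0.50, and all 6 erythroid markers lay below 0, with a median of -0.57. Of the ductal markers 6 of 8 lay below 0 (median -0.27), and of the pan-endocrine markers 7 of 9 lay above 0 (median 0.21). Of the mesenchymal markers 7 of 10 lay below 0 (median -0.09). The part of these cell types in the values of the 8 genes was not tested.

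In the mesenchymal fraction the 8 factors were listed at 0 or at low levels. Neurog3, Pax4 and Mafa were listed at 0 in all 7 libraries. Neurod1 was at 0 in 6 of the 7 and at 0.115 FPKM in mutant replicate 3. Nkx2-2 was at 0 in all 4 mutants and at 0, 0.198 and 0.861 FPKM in the controls. Nkx6-1 was at 0, 0.253 and 0 FPKM in controls and 0.195, 0.401, 0.162 and 0.199 FPKM in mutants, with overlap. Pax6 was the highest, at 2.17, 0.822 and 1.34 FPKM in controls and 1.09, 3.69, 0.582 and 0.641 FPKM in mutants.

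Pdx1 was the only one of the 8 whose mesenchymal groups did not overlap between genotypes: it was at 0.246, 0.254 and 0.0845 FPKM in controls and at 0 in all 4 mutants. The two-sided exact permutation p was 0.0286, and this level is far below the 1 FPKM needed for the model, so it was not tested across genes. Among the genes that were, 5.39% had mesenchymal groups that did not overlap. Pax6 was the only factor tested between mesenchymal genotypes, and it did not pass, against 0.0694% of 15856 genes (4.76% at an unadjusted p under 0.05). Its difference was -0.09 ± 0.48 (95% interval -1.22 to 1.05, limma adjusted p = 0.989), which became 0.08, 0.07 and 0.12 without mutant replicate 3, mutant replicate 4 and control replicate 1.

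Between fractions, 6 of the 8 genes were tested, and all 6 were lower in mesenchymal cells in both genotypes. Except for Pax6, whose mesenchymal mean was itself above 1 FPKM, they entered the test only through their non-mesenchymal level, so a difference was built into the choice. Over all genes, 22.6% passed in controls, 10.3% lower in mesenchyme, and 28.6% passed in mutants, 15.1% lower. In controls the log2 differences, mesenchymal minus non-mesenchymal, were -5.00 ± 0.28 for Nkx2-2, -4.35 ± 0.26 for Pax6 and -4.25 ± 0.23 for Nkx6-1. Those for Neurod1, Pdx1 and Neurog3 were -4.15 ± 0.21, -3.64 ± 0.24 and -2.13 ± 0.39. The limma adjusted p-values were 0.0121 for Neurog3 and 0.000148 to 0.000299 for the other 5, while the exact permutation p was 0.1 for each, the smallest that 3 against 3 libraries allow.

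In mutants the same differences were -5.28 ± 0.23 for Nkx2-2, -4.54 ± 0.46 for Pax6 and -3.73 ± 0.18 for Neurod1. Nkx6-1 differed by -3.57 ± 0.17, Pdx1 by -3.55 ± 0.17 and Neurog3 by -2.29 ± 0.29, and the limma adjusted p-values were 3.14e-06 to 0.000580. Except for Pax6, a difference was again built into the choice, so no conclusion is drawn from these p-values in either genotype. A group listed at 0 in every library also adds no spread to the SE. This held for Neurod1 and Neurog3 in mesenchymal controls, and for Pdx1, Nkx2-2 and Neurog3 in mesenchymal mutants. Pax6 and Pdx1 were the 2 genes above 0 in every mesenchymal control, and there the mesenchymal mean was lower than the non-mesenchymal mean 33.1-fold for Pax6 and 72.4-fold for Pdx1. No fold is given for genes listed at 0 in any mesenchymal control. The size of these log2 differences and the order of the genes depend on the constant added to FPKM: with 0.1 in place of 1 the differences in controls were -7.40 for Neurod1, -7.07 for Nkx2-2 and -7.01 for Nkx6-1. Those for Pdx1, Neurog3 and Pax6 were then -5.63, -5.09 and -5.04.

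The traces in the sorted mesenchyme came beside RNA of other pancreatic cells. The summed FPKM of 14 acinar markers in mesenchymal libraries was 645 to 1994, most of it Ctrb1 at 488 to 1578 FPKM. Ins2, an insulin gene, was at 7.26 to 73.7 FPKM. Of 10 pan-endocrine markers, Pcsk1n and Vgf were at 0 in all 7 libraries and Resp18 in the 4 mutants, Chga was at 0 to 1.80 FPKM, and the list summed to 84.7 to 185 FPKM, most of it Cpe at 76.0 to 174 FPKM. Mutant replicate 2, the highest of the mutants for Pax6 and Nkx6-1, also held the most Ins2, 73.7 FPKM, and the most Gcg, 21.2 FPKM, of the 4. Whether these cells supplied the reads was not tested.

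An interaction term set the H19DMD genotype difference in mesenchymal cells against that in non-mesenchymal cells. In limma 0 of 6 genes passed, against 0.0117% of 17105 genes, and 1, Nkx6-1, had an unadjusted p under 0.05, against 6.35%. For 5 of the 6 the mesenchymal libraries were at or near 0, and no difference between fractions in the effect of the genotype is read from their term. Set beside the difference in non-mesenchymal cells, the term was -0.16 against 0.16 for Neurog3, 0.67 against -0.48 for Nkx6-1 and 0.42 against -0.38 for Neurod1. It was 0.09 against -0.35 for Pdx1 and -0.28 against -0.11 for Nkx2-2. For Pax6, the only one of the 6 with a mesenchymal mean above 1 FPKM, it was -0.19 ± 0.60 (95% interval -1.50 to 1.12, limma adjusted p = 0.9748).

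Shares of the summed level separate the make-up of the set from its total. The 8 genes summed to 166.5 to 191 FPKM in Igf2 controls, 130 to 273 in Igf2 mutants, 138 to 154 in H19DMD controls and 94.8 to 172 in H19DMD mutants. Nkx2-2 and Pax6 together made up most of each sum. The share of Nkx2-2 was 38.9% to 47.0% in Igf2 mutants and 32.9% to 39.4% in controls, overlapping by a small margin. The share of Pax6 was 30.8% to 47.3% in H19DMD mutants and 29.5% to 36.3% in controls, and that of Nkx6-1 was 8.29% to 13.4% and 11.9% to 14.9%. No gene's share separated the genotypes in either model.

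**Figure D3:**
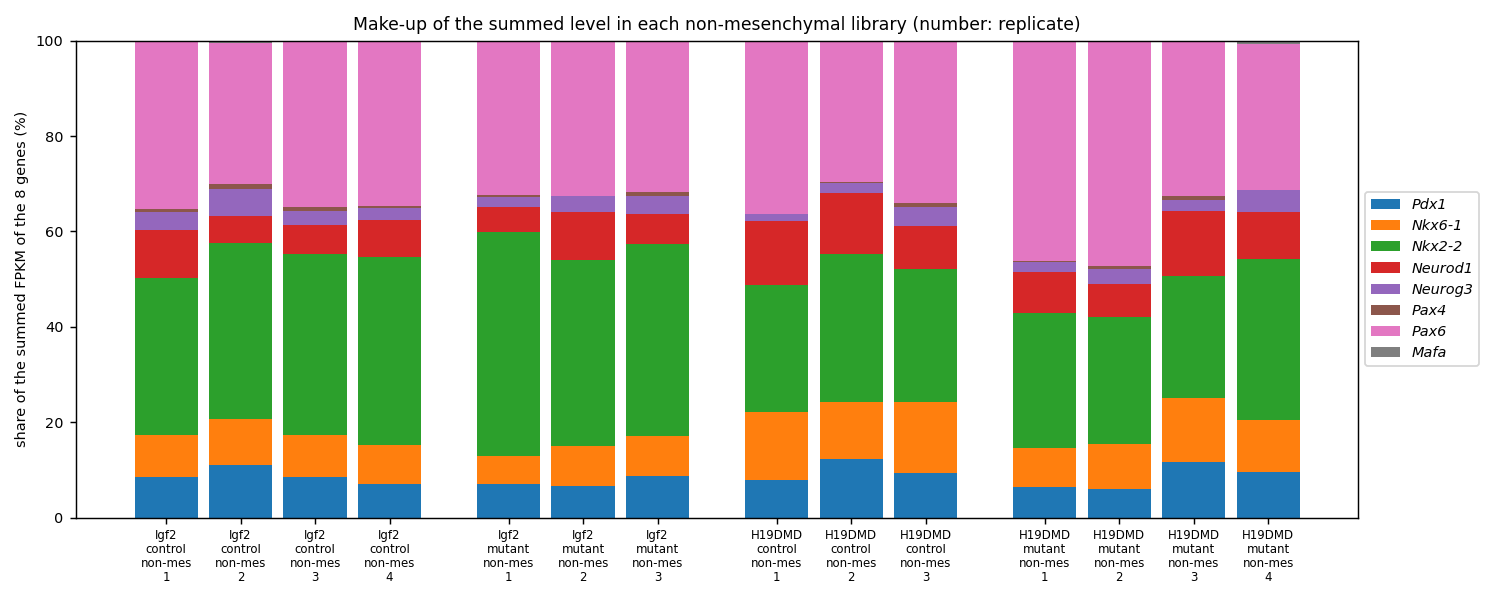
Share of each transcription factor in the summed FPKM of the 8 genes (vertical axis, percent) in each of the 14 non-mesenchymal libraries (one stacked bar per library, replicate number below). Pax6 reached its highest share, 47.3%, in an H19DMD mutant, and Nkx2-2 its highest, 47.0%, in an Igf2 mutant.

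Libraries of one group differed from each other more for some factors than for others. The coefficient of variation within a non-mesenchymal group was 4.09% to 51.4% for Nkx2-2, 12.8% to 47.5% for Pax6 and 4.70% to 39.0% for Pdx1. Nkx6-1 had the lowest upper value of these, 7.63% to 16.7%, and that of Neurog3 was 16.7% to 58.7%. Igf2 mutant replicate 1 was the highest of its group for Nkx2-2, Pax6, Pdx1, Nkx6-1, Neurod1 and Pax4, and replicate 2 the lowest for all of these except Neurod1. In the H19DMD mutants replicate 3 was the lowest for Nkx2-2, Pax6 and Neurog3.

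**Figure D4:**
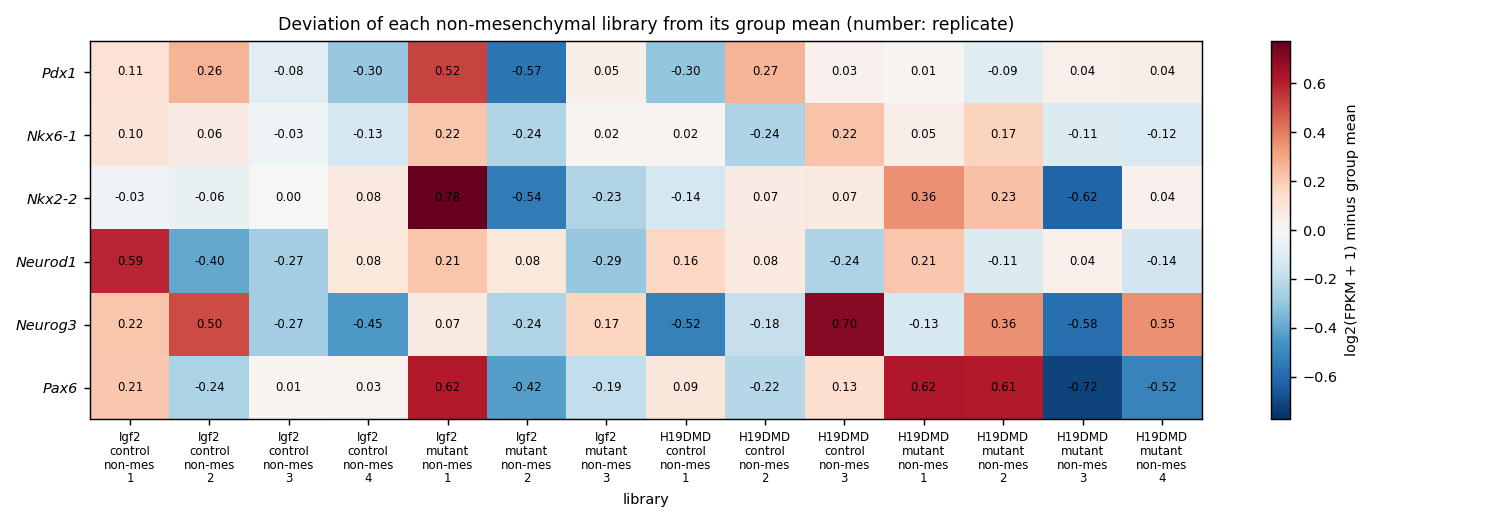
Deviation of each non-mesenchymal library from the mean of its group on the log2(FPKM + 1) scale (color and printed value) for the 6 transcription factors tested in both models. Igf2 mutant replicate 1 stands above its group mean for all 6, and H19DMD mutant replicate 3 holds the lowest value of Nkx2-2 and of Pax6.

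Deviations from the group mean were compared between genes over the 14 non-mesenchymal libraries, as a description with no test. The genes of a library share its scaling and its cell mixture. Nkx2-2 and Pax6 varied most alike, with Pearson's r = 0.808 and Spearman's rho = 0.727, and r was 0.931 in the Igf2 table and 0.785 in the H19DMD table. Without the 2 libraries farthest from the median of Nkx2-2, r was 0.682. Nkx6-1 and Pax6 followed, with r = 0.709 and rho = 0.688, and r was 0.703 without the corresponding 2 libraries. Pdx1 and Nkx6-1 did not keep 1 relation: r was 0.981 in the Igf2 table and -0.510 in the H19DMD table. Neurod1 and Neurog3 had r = -0.362 over all 14 libraries, with -0.127 in the Igf2 table and -0.836 in the H19DMD table.

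Among 8611 protein-coding genes at a mean of 5 FPKM or more, those whose deviations were most like each factor were listed, 2 per factor. For Pax6 they were Kif1a, a motor protein of vesicle transport (r = 0.910, rho = 0.899), and Ptprn, a membrane protein of dense-core vesicles (r = 0.882, rho = 0.833). For Nkx6-1 they were Rtn2 (r = 0.907, rho = 0.855) and C2cd4b (r = 0.902, rho = 0.908), and for Pdx1 Pdia5, an enzyme of the protein disulfide isomerase family (r = 0.930, rho = 0.895), and Mapkap1 (r = 0.925, rho = 0.851). For Nkx2-2 they were Nr1d1, a nuclear receptor of the circadian clock (r = 0.919, rho = 0.912), and Mum1 (r = 0.900, rho = 0.648). For Neurog3 they were Arvcf (r = 0.936, rho = 0.965) and Bag3 (r = 0.934, rho = 0.925). Neurod1 had the weakest best matches, Ell2 (r = 0.818, rho = 0.83) and Tapt1 (r = 0.817, rho = 0.785). All were chosen as the highest of 8611 values over 14 libraries.

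Some of the 8 loci overlap other genes, and the use of strand in counting is not stated. Fam241b, on the opposite strand, covers 273 exon bases of Neurog3, 16.3% of them, and was at 9.61 to 33.4 FPKM in non-mesenchymal libraries. In mesenchymal cells, where Neurog3 was listed at 0 throughout, Fam241b was at 0 to 3.72 FPKM. Cerkl, on the same strand, shares 201 exon bases with Neurod1, 7.37% of them. In non-mesenchymal cells it was at 47.9 to 78.4 FPKM in H19DMD controls and 21.05 to 57.1 in mutants, and at 20.9 to 29.3 in Igf2 controls and 26.6 to 61.8 in mutants. Its part in the Neurod1 values was not tested. It was at 9.51 to 11.8 FPKM in mesenchymal mutants and 1.92 to 4.32 FPKM in mesenchymal controls, where Neurod1 was at or near 0. Nkx2-2os shares 278 exon bases with Nkx2-2, 9.67% of them, and was at 0 in mesenchyme and at most 1.75 FPKM elsewhere. Reads from the shared bases cannot be told apart without strand or splicing.

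Other transcription factors of the islet and pancreas, 39 of 40 listed found in the files, were examined beside the 8 genes. In non-mesenchymal cells 0 of 35 tested passed in the Igf2 model, with a median of 0.02, and 0 of 34 in the H19DMD model, with a median of 0.01. In the Igf2 model 2 had mutant libraries all above the controls and 2 all below, against 6.02% of all genes without overlap. In the H19DMD model 0 of the 34 had groups that did not overlap, against 5.68% of all genes. Isl1, a LIM-homeodomain factor of all islet cells, was at 33.9 ± 4.59 FPKM (SD, n = 3) in H19DMD controls and 36.5 ± 6.76 (n = 4) in mutants. Insm1, a zinc finger factor of endocrine differentiation, was at 8.84 ± 2.97 FPKM in H19DMD controls and 6.42 ± 1.30 in mutants.

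Between fractions, 25 of the 34 other factors tested in controls passed as lower in mesenchyme and 0 as higher, against 10.3% of all genes lower, while 4 lay above 0. In mutants 25 of 32 passed as lower and 0 as higher, against 15.1% of all genes lower, while 3 lay above 0. As for the 8 genes, a factor high only in non-mesenchymal cells could enter the test through that level alone, as St18 did (0.198 FPKM in mesenchymal and 71.2 in non-mesenchymal controls, a difference of -5.87 ± 0.31). Prox1, at 1.99 and 71.4 FPKM, differed by -4.60 ± 0.19. Isl1 was lower by less, -1.43 ± 0.38 in controls (limma adjusted p = 0.0416) and -2.07 ± 0.25 in mutants (adjusted p = 0.000446), and it stayed at 6.44 to 21.2 FPKM in mesenchymal libraries, well above any of the 8 genes there.

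The hormones and other genes that these factors regulate were listed beside them, 20 genes in all. In the Igf2 model 0 of 20 passed, 19 lay above 0 and the median was 0.31. In the H19DMD model 0 of 20 passed, 14 lay below 0 and the median was -0.21. Of the 20, 3, Ins1, Gcg and Glp1r, had mutant libraries all below the controls, against 2.2% of all genes tested. This list too was chosen with earlier results of these data known, so the share is a description only. Ins1, an insulin gene bound by Pdx1 and Neurod1, was at 6477 ± 1127 FPKM (SD, n = 3) in H19DMD controls and 3516 ± 982 (n = 4) in mutants, a log2 difference of -0.91 ± 0.29 (limma adjusted p = 0.892). Gcg, the glucagon gene, was at 7217 ± 1458 FPKM and 3912 ± 1664, a difference of -0.96 ± 0.36 (adjusted p = 0.892). Ins2 was at 9110 ± 2361 FPKM and 5043 ± 1406, a difference of -0.86 ± 0.31 (adjusted p = 0.892), and its groups overlapped. Sst, the somatostatin gene, was at 1474 ± 579 FPKM and 1442 ± 97.9, and Chga, a granule protein of all endocrine cells, at 74.4 ± 10.9 and 69.6 ± 11.8.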

How the data were processed

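Sorted pancreatic cells gave RNA for single-end HiSeq sequencing after amplification with the Ovation RNA-seq V2 kit, per the labels' protocols. TopHat2 2.0.8, Cufflinks 2.2.1 and GRCm38 are named per the submitters' processing notes; how strand was treated, and whether libraries were scaled to each other, is not given in the sources used here. Values are FPKM, per the file headers, in 1 table that the authors deposited for each model, with 38283 gene rows, of which 36341 identifiers are in GENCODE M21. FPKM values carry no counts, low values showed no step common to a library, and absolute depth is unknown, so no counting interval is given. An exact 0 in such a table can be a failed estimate.

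Samples were grouped by their labels. The 8 mesenchymal libraries of the Igf2 model and 1 H19DMD control of each fraction were not analysed here. Replicates correlated across genes at Pearson's r of 0.850 or more, and at most 0.00638% of their values above 0 were identical.

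Tests used limma 3.58.1 in R 4.3.3 (lmFit, eBayes with a variance trend) on log2(FPKM + 1), which understates changes of low genes. Genes that averaged 1 FPKM or more in a comparison were tested within a table, two-sided, with Benjamini-Hochberg adjustment over all genes tested at 0.05. The fitting script was tested on simulated data. Single genes also had two-sided exact permutation tests. Alternatives were a pseudocount of 0.1 or 0.5, no filter or one at 5 FPKM, median-ratio scaling, no variance trend, robust eBayes, protein-coding genes alone, a replicate block, all groups in one fit and leaving out each library. The 8 genes and all lists were chosen with earlier results of these data known. All 8 genes were named throughout. From the other lists up to 4 genes that passed, by fold change, were named, and otherwise Isl1, Insm1, Ins1, Ins2, Gcg, Sst and Chga. Chgb, Pcsk1n, Vgf, Resp18, Cpe, Glp1r, Amy2a5, Ctrb1, Nkx3-2 and the overlapping genes were named after their values were seen. Some genes that these rules name are not reported here.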

Additional observations from a re-analysis of the deposited data

Results flagged for a closer look

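In groups of 4 libraries, 5 of the 19 gene and group combinations checked held 1 library far from the other 3 by Dixon's test. In 3 of the 5 the other 3 libraries were all listed at 0, which fixes the outcome of that test, so the rate of about 1 in 20 that chance gives does not apply to them. In the mesenchymal H19DMD mutants, replicate 2 held Nkx6-1 at 0.401 FPKM against 0.162 to 0.199 FPKM in the others, and Pax6 at 3.69 FPKM against 0.582 to 1.09 FPKM. Replicate 3 of that group held Neurod1 at 0.115 FPKM with the others at 0. Mafa was at 0.935 FPKM in non-mesenchymal Igf2 control replicate 2 and at 0.726 FPKM in non-mesenchymal H19DMD mutant replicate 4, with the others of each group at 0. All 5 lie at or below 3.69 FPKM.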

How the results depend on the processing

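The number of the 8 genes that passed was 0 between genotypes and for the interaction under every alternative run, and 5 or 6 between fractions. It was 5 where Neurog3 fell below the filter, at a mean of 5 FPKM and, in controls, without non-mesenchymal control replicate 3. Over all genes, calls ranged from 0 to 37 in the Igf2 model (11 as reported), 0 to 27 in H19DMD mesenchyme (11) and 1 to 34 in H19DMD non-mesenchymal cells (11). They ranged from 2448 to 4448 between fractions in controls (3785), 3148 to 5418 in mutants (4802) and 0 to 9 for the interaction (2).

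Replicate numbers were treated only as names, since deviations of same-numbered libraries correlated at -0.051 to 0.067. With the replicate block 0 of the 8 genes passed between genotypes, 6 between fractions in each genotype and 0 for the interaction. Over all genes the block gave 2 calls in the Igf2 model, 7 and 5 in H19DMD mesenchymal and non-mesenchymal cells, 2660 and 4141 between fractions, and 2 for the interaction.

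Some differences that had not passed changed sign. In the Igf2 model median-ratio scaling gave 0.013 for Pax6 and 0.025 for Neurod1, and the block gave 0.0096 for Neurod1. Leaving out 1 library at a time gave -0.34 to 0.18 for Pax6, -0.15 to 0.18 for Neurod1, -0.17 to 0.49 for Nkx2-2, -0.44 to 0.11 for Pdx1 and -0.33 to 0.07 for Pax4. In H19DMD mesenchyme the block gave 0.066 for Pax6, and leaving out a library -0.44 to 0.12. In H19DMD non-mesenchymal cells leaving out a library gave -0.10 to 0.34 for Pax6, -0.23 to 0.10 for Nkx2-2 and -0.10 to 0.51 for Neurog3. For the interaction, pseudocounts of 0.1 and 0.5 gave -1.13 and -0.11 for Pdx1, and leaving out a library -0.041 to 0.24 for Pdx1, -0.54 to 0.019 for Pax6 and -0.51 to 0.10 for Neurog3. The cause was not tested. Pdx1, Nkx6-1 and Neurod1 in H19DMD non-mesenchymal cells kept their sign in all 17 alternatives, at -0.50 to -0.21, -0.60 to -0.37 and -0.50 to -0.30. Groups of 3 or 4 libraries and an unknown depth limit the precision, and the intervals given are not adjusted for the number of genes tested.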
